A study of Mus musculus with 16 samples.

Results

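The genes described here are 10 enzymes that make, use, recycle or break down glutathione: the transferases Mgst1, Mgst3, Gstm1, Gstm5 and Gsta4, the synthesis genes Gclc, Gclm and Gss, the reductase Gsr and the dipeptidase Cndp2. They were taken as every probe set (a group of short probes that reads 1 transcript) whose annotated gene symbol is 1 of the 10, which gave 17 of 37112 probe sets and 10 of 16206 genes. Mgst1 and Cndp2 head the set because they were already among the genes that differed between deletion and control arrays, so their differences in that comparison are given as a description, without a p-value, and their place among the genes that passed only restates the choice. The other 8 genes were added for their place in the pathway.

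The study asked how expression in striatal D1 neurons changes when miR-128 is missing. It measured RNA on 16 Affymetrix arrays, from ribosomes tagged in D1 medium spiny neurons (the dopamine D1 receptor neurons of the striatum) and pulled down from dissected striatum. The 9 deletion mice carried the ribosome tag and a homozygous deletion of miR-128-2 limited to D1 neurons, and the 7 control mice were littermates with the tag alone. All mice were C57BL6/J and 3 months old. The arrays came in 2 experimental repeats, with 4 deletion and 4 control arrays in repeat 1 and 5 deletion and 3 control arrays in repeat 2, and the titles call the replicates biological. The labels used here name neither the promoter that drives the tag nor the Cre line. A mouse without miR-128-2 still has the miR-128-1 locus, which encodes the same 3p arm.

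Glutathione is a tripeptide of glutamate, cysteine and glycine and the main small thiol of cells. Glutamate-cysteine ligase, built from a catalytic subunit (Gclc) and a modifier subunit (Gclm), makes the first bond, and glutathione synthetase (Gss) adds glycine. Transferases couple glutathione to reactive compounds such as lipid peroxidation products, glutathione reductase (Gsr) returns the oxidised form with NADPH, and cytosolic dipeptidase 2 (Cndp2) splits the cysteinylglycine left by breakdown, which frees cysteine. In brain, astrocytes hold much of this machinery and feed neurons with precursors.

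The deleted locus encodes the following mature microRNAs, shown because this locus defines the deletion group, with bases 2 to 8 (the seed, which pairs with targets) in capitals. The sequences are from RefSeq, build GRCm38.p6, and lie on the minus strand at chr9:112118644-112118664 for the 3p arm and chr9:112118679-112118701 for the 5p arm.
mmu-miR-128-3p: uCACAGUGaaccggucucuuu
mmu-miR-128-2-5p: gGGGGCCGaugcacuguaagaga

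From the promoter table of RefSeq (250 bases before to 50 after each gene start, GRCm38.p6), 8 promoters of 6 of the 10 genes were taken. These genes were Mgst1, Mgst3, Gstm1, Gstm5, Gclm and Gss. No promoter of Gsta4, Gclc, Gsr or Cndp2 was among these 8, which does not show that the table lacks them. The core of the antioxidant response element, the motif bound by NRF2 (searched as TGACNNNGC on both strands), was found in 3 of these 8, against 12.4% of all 32851 promoters in the table. The 12.4% covers the whole table while the 8 do not cover all 10 genes, so nothing is read from this contrast. All 3 matches found are shown, those of Gstm5, Gclm and Mgst1, and no link of the motif to expression was tested. The motif stands in capitals, on the gene strand for Gstm5 and on the opposite strand for Gclm and Mgst1, and none of the 3 overlaps the AP-1 motif TGACTCA. It begins 42 bases before the start of Gstm5, 134 before that of Gclm and 56 before that of Mgst1, at chr3:107895802-107895829, chr3:122245413-122245440 and chr6:138140461-138140488, all on the plus strand. A match of letters is a description and not a binding site.
Gstm5: caccgcccacTGACCACGCggagggcgg
Gclm: gctcccgggcGCACCGTCAactctcacg
Mgst1: gcggggcttgGCACGGTCAggaggcggg

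All values below are log2 expression centred by the authors on each probe set's median over the 16 arrays, so 0 is the middle array and 1 unit is a doubling. Levels cannot be compared between genes, and neither a gene's absence nor the D1 label can be checked against absolute marker levels. A gene with several probe sets is their mean. A pair of control arrays, replicate 3 of repeat 1 and replicate 1 of repeat 2, read high for several marker lists of other cells: their means over 12 oligodendrocyte markers were 1.47 and 1.35, against -0.36 to 0.46 on the deletion arrays and -0.30 to 0.36 on the other control arrays. Their means over 10 astrocyte markers were 0.48 and 0.35, against -0.29 to 0.29 on the deletion arrays and -0.33 to 0.12 on the other control arrays. Their D1 neuron markers were low, at -0.19 and -0.28, against -0.02 to 0.22 on the deletion arrays and -0.16 to 0.06 on the other control arrays. In microglia markers they read 0.62 and 0.70, against at most 0.21 on the other 14 arrays, and in D2 neuron markers 0.56 and 0.54, against at most 0.37. Both are control arrays, so each fitted gene difference between genotypes is also given without them where it moves by over 1.5 times. Marker lists themselves differed in direction between genotypes, although 0 genes of any marker list passed the adjusted test described below. In deletion minus control, 6 of 7 D1 neuron markers were above 0 (median 0.20, and 0.10 without the 2 arrays), 0 of 5 cortical glutamatergic neuron markers were (median -0.38, and -0.30 without them) and 0 of 12 oligodendrocyte markers were (median -0.30, and 0.07 without them). For D2 neurons it was 1 of 3 (median -0.14, and 0.20 without them), for microglia 0 of 5 (-0.12, and -0.00) and for astrocytes 3 of 10 (-0.06, and 0.03). Striatal interneurons had 1 of 6 above 0 (-0.18, and -0.08), vascular cells 1 of 4 (-0.07, and 0.00) and choroid plexus and ependyma 0 of 5 (-0.05, and -0.01). The part of these shifts in the differences of the enzymes was not tested. In pulled-down RNA, fewer cells of a type and less RNA per cell cannot be told apart.

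Among the membrane transferases, Mgst1 was higher in the deletion group in both repeats. Mgst1 encodes microsomal glutathione transferase 1, a membrane enzyme that conjugates glutathione and reduces lipid hydroperoxides. In repeat 1 its probe set (1415897_a_at) read 0.55, 0.28, 0.24 and 0.26 on the deletion arrays, against -0.34, -0.03, -0.26 and 0.03 on the control arrays. In repeat 2 it read 0.18, -0.20, -0.09, 0.11 and 0.13 on the deletion arrays, against -0.29, -0.49 and -0.45 on the control arrays. Within each repeat every deletion array lay above every control array, while across repeats the groups overlapped, because 2 deletion arrays of repeat 2 lay below control arrays of repeat 1. With experimental repeat as a term in a linear model (limma), deletion minus control was 0.46 ± 0.07 (SE; 95% interval 0.30 to 0.62), or 1.38-fold (1.23 to 1.53). The difference for Mgst1 was 0.48 within repeat 1 and 0.44 within repeat 2, and 0.47 ± 0.08 without the 2 control arrays high in oligodendrocyte markers.

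Cndp2 was the other gene with higher values in the deletion group. In repeat 1 the mean of its 2 probe sets was 0.03, 0.12, 0.13 and 0.44 on the deletion arrays, against -0.41, -0.19, -0.33 and -0.25 on the control arrays. In repeat 2 it was -0.16, 0.08, 0.14, 0.20 and 0.19 on the deletion arrays, against -0.25, -0.24 and -0.25 on the control arrays. All 9 deletion values exceeded all 7 control values, also across repeats. Deletion minus control for Cndp2 was 0.41 ± 0.07 (SE; 95% interval 0.27 to 0.55), or 1.33-fold (1.21 to 1.46), and it was 0.47 within repeat 1 and 0.34 within repeat 2. Non-overlap within both repeats with the deletion arrays above was met by 17 of 16206 genes (0.105%), Mgst1 and Cndp2 among them; as both were chosen from this comparison, nothing is read from that.

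The 2 probe sets of Cndp2 gave different sizes. Probe set 1460177_at read 0.10, 0.18, 0.23 and 0.44 on the deletion arrays of repeat 1, against -0.37, -0.08, -0.62 and -0.19 on the control arrays. The repeat 2 values were -0.07, 0.09, 0.21, 0.29 and 0.07 on the deletion arrays, against -0.59, -0.37 and -0.30 on the control arrays. Its groups did not overlap in either repeat, and its fitted difference was 0.55 ± 0.08. Probe set 1448263_a_at had a difference of 0.27 ± 0.10, with 0.39 within repeat 1 and 0.14 within repeat 2, and its groups overlapped in both repeats. The probe sets of Cndp2 parted on the 2 control arrays high in oligodendrocyte markers, where 1448263_a_at exceeded 1460177_at by 0.59 and 0.69, against -0.22 to 0.25 on the other 14 arrays. Without those arrays the differences were 0.36 ± 0.10 for 1448263_a_at and 0.45 ± 0.07 for 1460177_at, and the mean of both was 0.41 ± 0.08. After the group means were subtracted, the correlation between the 2 probe sets was 0.06 over 16 arrays and 0.70 over those 14.

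**Figure D1:**
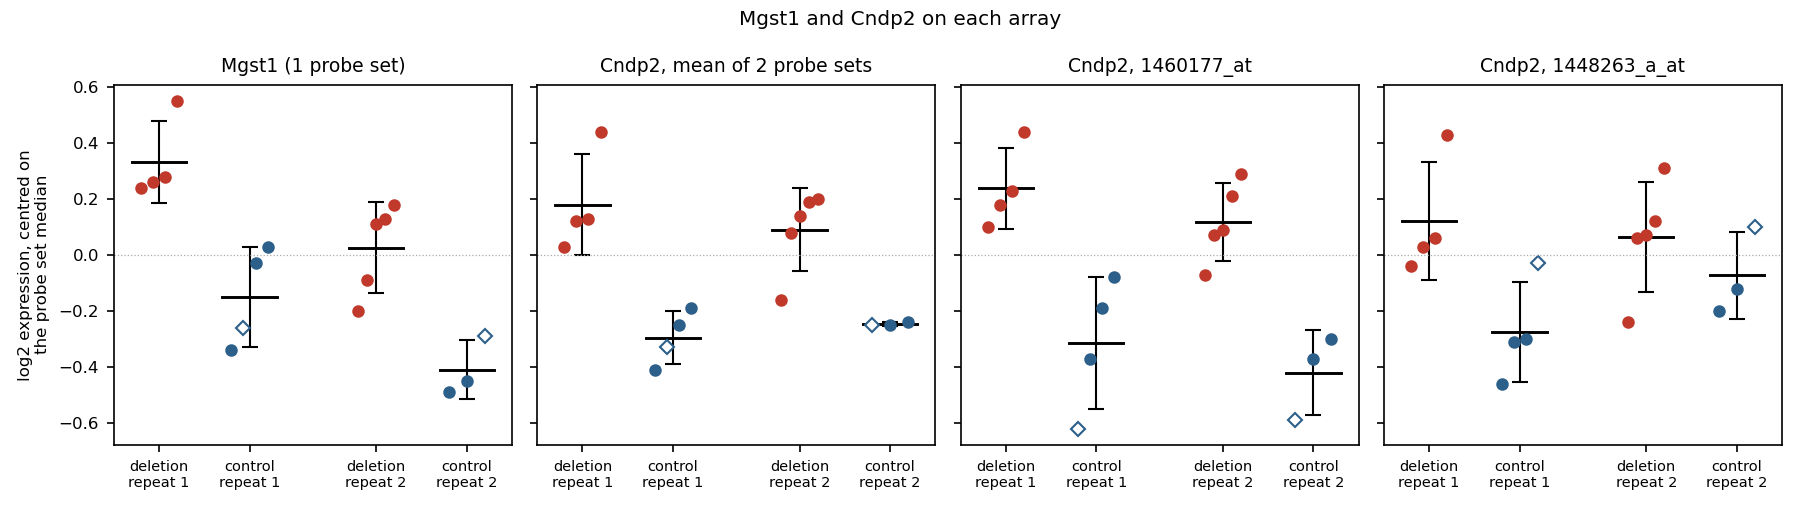
Centred log2 expression of Mgst1, of the Cndp2 mean and of each Cndp2 probe set on every array, by group and repeat (deletion red and left of control in blue; bars are means, error bars SD; open diamonds are the 2 control arrays high in oligodendrocyte markers). Cndp2 has all 9 deletion arrays above all 7 control arrays, and Mgst1 is separated within each repeat.

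By the same fit over all genes (adjusted p under 0.05, Benjamini-Hochberg over 16206 genes), 10 genes or 0.0617% passed in the deletion comparison, all of them higher in the deletion group. Mgst1 and Cndp2 are 2 of these 10, which follows from how they were chosen. Among probe sets 12 of 37112 passed (0.0323%), of which 1460177_at of Cndp2 is 1. Without the 2 control arrays high in oligodendrocyte markers a single gene passed (0.00617%), which was neither Mgst1 nor Cndp2. Leaving out any single array also left at most 1 of them past the threshold. Of the other 8 enzymes 0 passed with limma, and 0 had an unadjusted p under 0.05, where 4.97% of all genes did so with higher and 3.71% with lower values in the deletion group. Across 26 alternative fits, the number of these 8 that passed was 0 in each, and at most 2 had an unadjusted p under 0.05. Their differences ran from -0.32 to 0.23, with 3 above 0 and 5 below 0 and a median of -0.06, against a median of -0.003 over all genes, of which 45.3% were above 0. Without the 2 control arrays the median of the 8 was -0.15. Their standard errors were 0.10 to 0.16. Of the 8 gene means Gsr alone had a 95% interval that reached the 0.46 of Mgst1. Without the 2 control arrays the interval of Gsr was -0.22 to 0.25. As the 0.46 of Mgst1 was itself chosen from this comparison, nothing is read from the contrast with it. The residual spread between arrays was 0.15 for Mgst1 and 0.13 for Cndp2, near the median of 0.15 over all genes, while from 69.1% to 90.2% of genes had a smaller spread than each of the other 8.

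Mgst3, the related microsomal enzyme, gave no such difference. In repeat 1 it read -0.44, -0.09, 0.01 and 0.25 on the deletion arrays, against -0.18, 0.25, -0.01 and -0.04 on the control arrays. Repeat 2 gave -0.04, -0.34, 0.27, 0.44 and 0.30 on the deletion arrays, against -0.26, 0.65 and 0.30 on the control arrays. The groups overlapped in both repeats, and deletion minus control for Mgst3 was -0.09 ± 0.14 (95% interval -0.40 to 0.22, adjusted p = 0.97, limma). Without the 2 control arrays it was -0.20 ± 0.15 (-0.52 to 0.12).

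Gstm1 and Gsta4, cytosolic transferases, had lower means in the deletion group that did not pass the test. Gstm1 is a mu-class enzyme, strongly expressed in astrocytes among other cells, and Gsta4 conjugates 4-hydroxynonenal, an aldehyde from lipid peroxidation. In repeat 1 the Gstm1 mean of 3 probe sets read -0.50, -0.04, 0.06 and 0.23 on the deletion arrays, against -0.08, 0.52, 0.34 and 0.08 on the control arrays. The arrays of repeat 2 read -0.17, -0.17, -0.19, -0.19 and 0.12 on the deletion arrays, against 0.83, 0.11 and -0.29 on the control arrays. Only 1 of the 9 deletion arrays exceeded the mean of the control arrays in its own repeat, although the groups overlapped in both repeats. Deletion minus control for Gstm1 was -0.31 ± 0.15 (95% interval -0.63 to 0.01, adjusted p = 0.60, limma). The highest Gstm1 value, 0.83, was on control repeat 2 replicate 1, an array high in oligodendrocyte and astrocyte markers, and without both such arrays the difference was -0.14 ± 0.13.

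The 3 probe sets of Gstm1 gave -0.44 ± 0.18 (1416416_x_at), -0.08 ± 0.08 (1425627_x_at) and -0.39 ± 0.21 (1448330_at), and none passed (adjusted p = 0.66 for the first, limma). Without the 2 control arrays these were -0.28 ± 0.18, -0.02 ± 0.08 and -0.12 ± 0.17 in the same order. The first and last followed each other closely between arrays (r = 0.94 with group means subtracted, a description over 16 arrays). Gstm genes are closely similar neighbours on chromosome 3, and the suffix _x_at marks probes that can bind other transcripts, so the Gstm1 values may hold signal of its paralogs.

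Gsta4 read -0.70, -0.03, 0.23 and 0.31 on the deletion arrays of repeat 1, against -0.07, 0.00, 0.36 and 0.38 on the control arrays. In repeat 2 it read -0.10, -0.81, -0.11, -0.12 and 0.04 on the deletion arrays, against 0.50, 0.12 and -0.00 on the control arrays. The groups overlapped in both repeats, with a single low deletion array in each. Deletion minus control for Gsta4 was -0.32 ± 0.16 (95% interval -0.66 to 0.03, adjusted p = 0.61, limma), and -0.21 ± 0.18 without the 2 control arrays. Gstm5, another mu-class transferase, averaged -0.02 ± 0.32 on the deletion arrays (SD, n = 9) and 0.00 ± 0.31 on the control arrays (SD, n = 7), with a difference of -0.04 ± 0.16 (adjusted p = 1.00, limma), and -0.20 ± 0.15 (95% interval -0.52 to 0.12) without the 2 control arrays. Leaving out control repeat 2 replicate 1 alone gave -0.17. Its values spread widely in both groups, from -0.62 to 0.50 on the deletion arrays and from -0.55 to 0.36 on the control arrays.

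**Figure D2:**
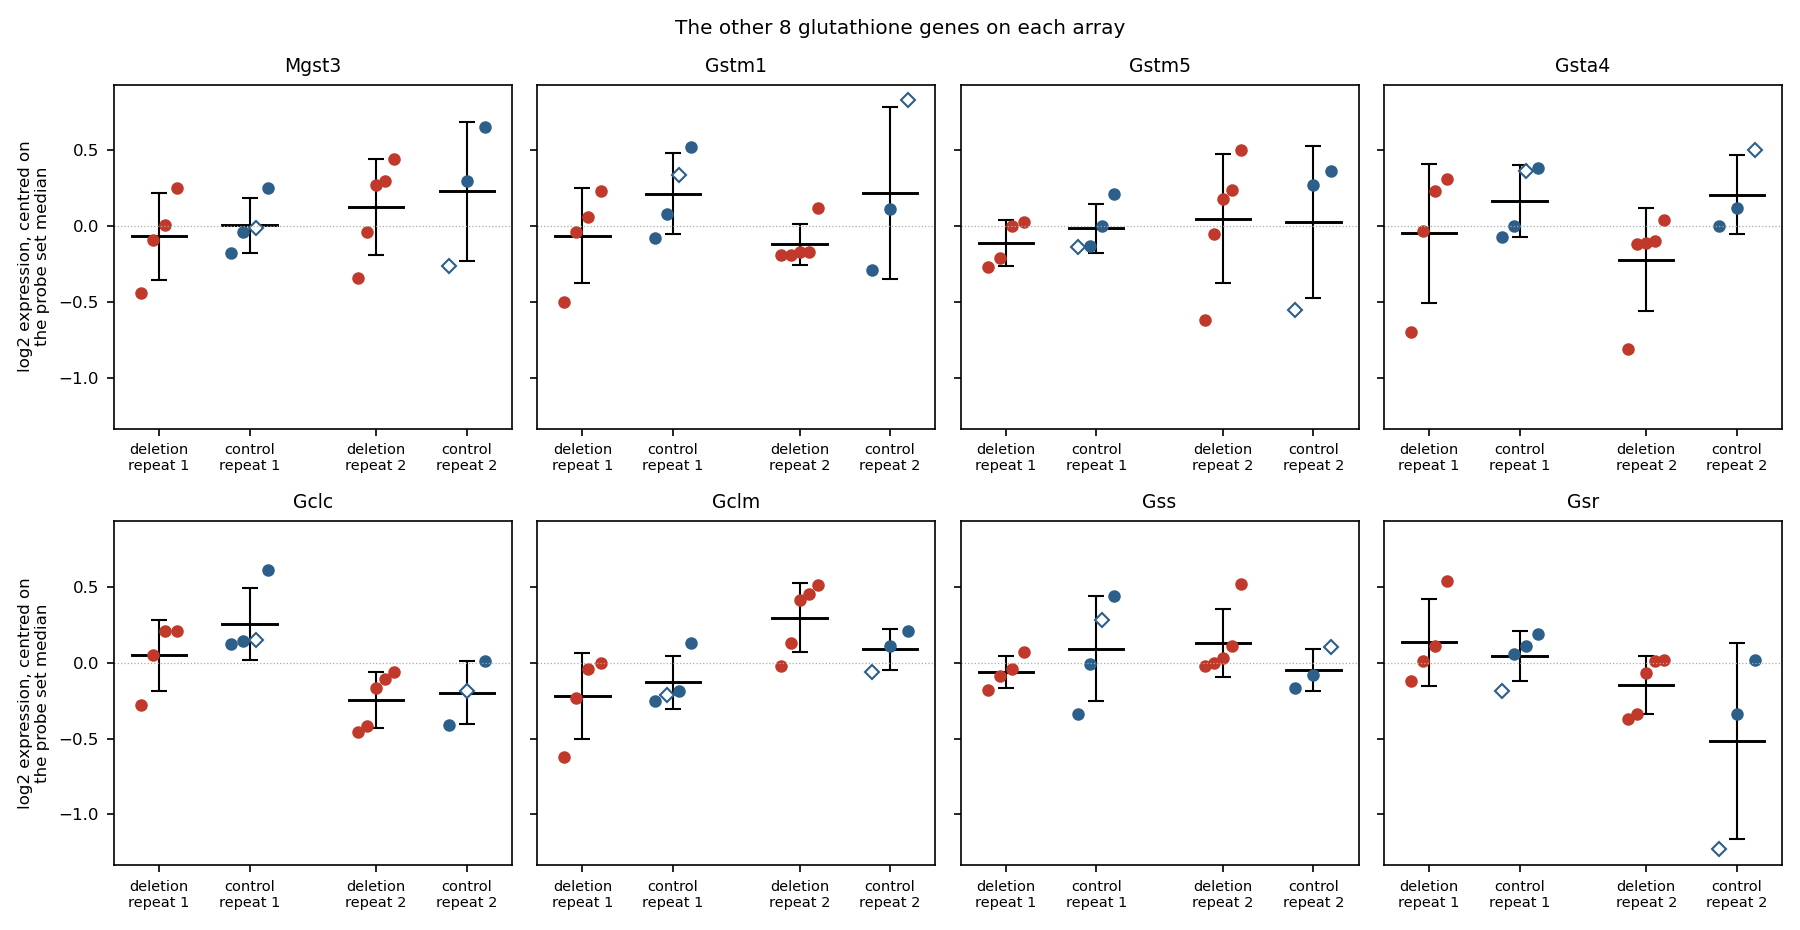
Centred log2 expression of the 8 other enzymes on every array, each gene the mean of its probe sets, drawn as in the plot of Mgst1 and Cndp2. Deletion (red) and control (blue) arrays overlap in both repeats for each of the 8, and the lowest point, -1.23, is Gsr on control repeat 2 replicate 1.

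The synthesis genes did not differ by genotype beyond the spread between arrays. Gclc read 0.21, 0.05, 0.21 and -0.28 on the deletion arrays of repeat 1, against 0.12, 0.61, 0.15 and 0.14 on the control arrays. The repeat 2 values were -0.11, -0.42, -0.06, -0.17 and -0.46 on the deletion arrays, against -0.19, 0.01 and -0.41 on the control arrays. The groups overlapped, deletion minus control for Gclc was -0.13 ± 0.10 (95% interval -0.35 to 0.09, adjusted p = 0.82, limma), and the values of both genotypes were lower in repeat 2.

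Gclm read -0.23, -0.04, 0.00 and -0.62 on the deletion arrays of repeat 1, against -0.19, 0.13, -0.21 and -0.25 on the control arrays. Repeat 2 gave 0.45, -0.02, 0.41, 0.51 and 0.13 on the deletion arrays, against -0.06, 0.11 and 0.21 on the control arrays. The groups overlapped in both repeats, and deletion minus control for Gclm was 0.05 ± 0.11 (95% interval -0.18 to 0.29, adjusted p = 0.99, limma), and -0.0037 ± 0.12 without the 2 control arrays. Its 2 probe sets had differences of opposite sign, -0.12 ± 0.10 (1418627_at) and 0.23 ± 0.20 (1439050_at), which were -0.08 ± 0.11 and 0.07 ± 0.21 without those arrays, and did not follow each other between arrays (r = -0.02). As for Cndp2, the gap between the Gclm probe sets was high on the 2 control arrays high in oligodendrocyte markers, 0.82 and 0.58, against -0.85 to 0.43 on the other 14 (1418627_at minus 1439050_at), so the Gclm mean is less certain than that of a gene whose probe sets move together.

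Gss averaged 0.05 ± 0.20 on the deletion arrays (SD, n = 9) and 0.03 ± 0.27 on the control arrays (SD, n = 7), a difference of 0.01 ± 0.12 (95% interval -0.24 to 0.26, adjusted p = 1.00, limma), and 0.07 ± 0.13 without the 2 control arrays. The recycling enzyme Gsr read 0.11, 0.01, 0.54 and -0.12 on the deletion arrays of repeat 1, against 0.19, 0.06, -0.19 and 0.11 on the control arrays. The arrays of repeat 2 read 0.02, -0.37, 0.01, -0.07 and -0.34 on the deletion arrays, against -1.23, -0.34 and 0.02 on the control arrays. A single control array lay far below the rest. Deletion minus control for Gsr was 0.23 ± 0.16 (95% interval -0.11 to 0.56, adjusted p = 0.77, limma), and 0.01 ± 0.11 without the 2 control arrays high in oligodendrocyte markers, of which the array at -1.23 is 1.

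The genotype difference was not shown to depend on the experimental repeat for any of the 10 genes. In a fit with an interaction term, 0 of 16206 genes passed (limma, adjusted p under 0.05), with 684 genes or 4.22% at an unadjusted p under 0.05, and 0 of the 10 enzymes were among those 684. The smallest unadjusted p among them was 0.16.

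The repeats themselves differed in several of these enzymes, a comparison that the choice of members did not use. Repeat 2 against repeat 1, with genotype as a term, passed for 3 of the 10 genes, 1 higher and 2 lower in repeat 2, against 14.9% of all genes (7.84% higher and 7.1% lower), so that the repeats differed widely beyond these enzymes. The labels do not say what set the repeats apart. Gclm was higher in repeat 2, with means of 0.29 ± 0.23 (SD, n = 5) on the deletion arrays and 0.09 ± 0.14 (n = 3) on the control arrays of repeat 2, against -0.22 ± 0.29 and -0.13 ± 0.17 (n = 4 each) in repeat 1. Repeat 2 minus repeat 1 for Gclm was 0.39 ± 0.11 (adjusted p = 0.029, limma). Neither Gclm probe set passed alone over all probe sets (0.23, adjusted p = 0.16, for 1418627_at and 0.54, adjusted p = 0.094, for 1439050_at, limma). Its partner subunit Gclc was lower in repeat 2 (-0.36 ± 0.10, adjusted p = 0.027, limma), with means of -0.24 ± 0.18 (n = 5) on the deletion arrays and -0.20 ± 0.21 (n = 3) on the control arrays of repeat 2, against 0.05 ± 0.23 and 0.25 ± 0.23 (SD, n = 4 each) in repeat 1. The gene means of the catalytic and the modifier subunit moved in opposite directions between repeats.

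Mgst1 was also lower in repeat 2 (-0.29 ± 0.07, adjusted p = 0.016, limma), with means of 0.03 on the deletion arrays and -0.41 on the control arrays of repeat 2, against 0.33 and -0.15 in repeat 1. Cndp2 gave -0.03 ± 0.06 for the same contrast (adjusted p = 0.76), and Gsr -0.40 ± 0.16 (adjusted p = 0.10). At the level of probe sets, where 11.9% of all passed in this contrast, 1455959_s_at carried the Gclc shift (-0.51 ± 0.09, adjusted p = 0.0022) while 1424296_at did not pass (-0.22 ± 0.16, adjusted p = 0.31). Of Gsr, 1421817_at passed (-0.44 ± 0.10, adjusted p = 0.0093). Without the 2 control arrays the Gclc difference was of the same size with a larger error (-0.36 ± 0.12, against ± 0.10) and no longer passed (adjusted p = 0.058, limma), and those of Mgst1 (-0.32, adjusted p = 0.016) and Gclm (0.43, adjusted p = 0.032) still passed, where 13.8% of all genes did.

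**Figure D3:**
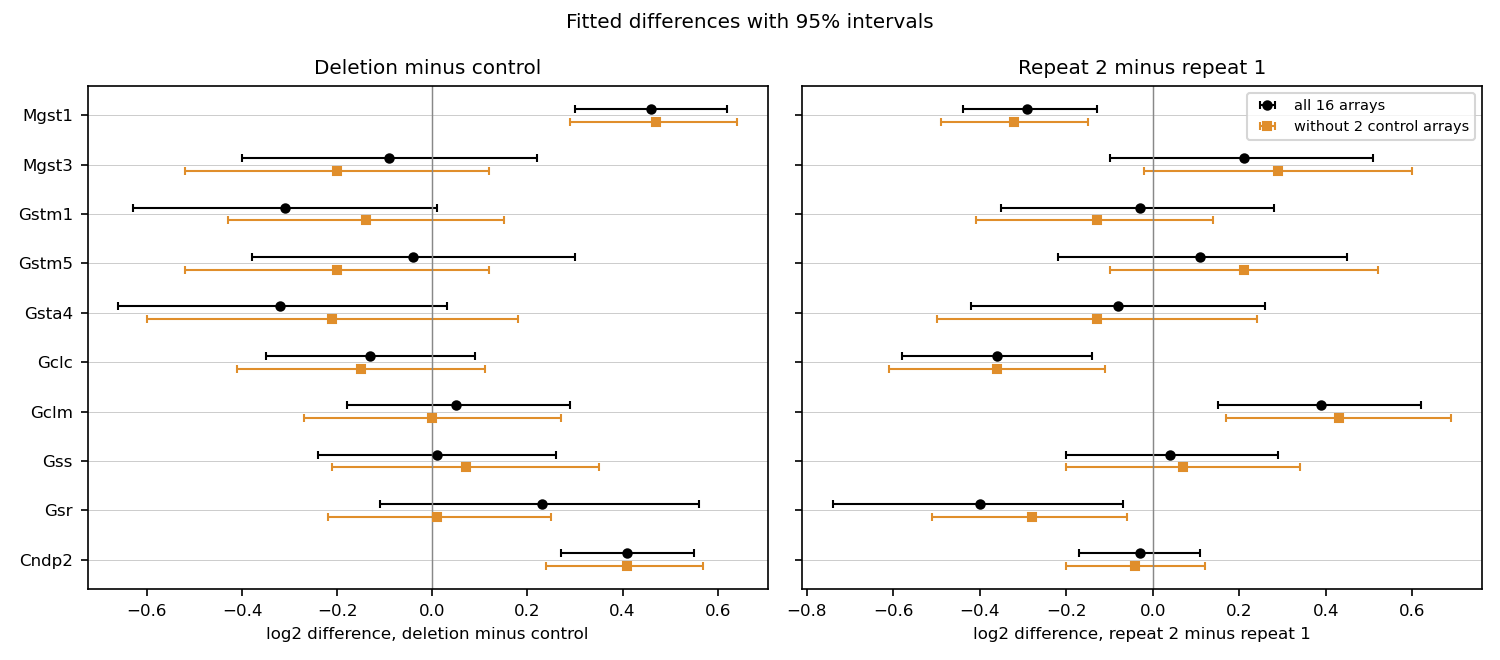
Fitted log2 differences with 95% intervals for each gene, deletion minus control in the left panel and repeat 2 minus repeat 1 in the right, with and without the 2 control arrays high in oligodendrocyte markers. On the left Mgst1 (0.46) and Cndp2 (0.41), chosen from this comparison, have intervals above 0, and that of Gsr (-0.11 to 0.56) overlaps both. On the right Gclm is above 0, while Gclc, Mgst1 and Gsr (-0.40, interval -0.74 to -0.07, which did not pass after adjustment) are below.

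Variation between mice of the same group shows which enzymes move together without using the genotype difference. With the mean of each genotype and repeat subtracted, Pearson correlations were computed for 45 gene pairs over 16 arrays, and for each gene against the oligodendrocyte and the astrocyte marker mean over 14 arrays, since the 2 control arrays stand apart in those markers. P-values came from 99999 permutations within groups (two-sided) and were adjusted over all 65 relations. Of the gene pairs 27 of 45 were positive, with a median r of 0.09, so the enzymes did not move as a single block. A single relation passed, that of Gstm5 and Gclm (r = 0.76, permutation p = 8e-05, adjusted p = 0.0052, and rho = 0.81, permutation p = 0.00017, adjusted p = 0.011). It was 0.75 without the 2 arrays farthest from the Gstm5 median and 0.80 without the 2 control arrays high in oligodendrocyte markers. Both genes lie on chromosome 3 but are read by separate probe sets. The Gclm value is the mean of 2 probe sets that did not follow each other (r = -0.02), and each alone was not compared with Gstm5. How often pairs of other genes reach such an r was not tested.

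Gclc and Gclm, which shifted in opposite directions between repeats, were positively related within groups, although this relation did not pass after adjustment (r = 0.73, permutation p = 0.007, adjusted p = 0.10, and rho = 0.69, permutation p = 0.011, adjusted p = 0.11). It was 0.57 without the 2 farthest arrays. In the group of 4 control arrays of repeat 1, replicate 2 was highest in both genes, at 0.61 for Gclc and 0.13 for Gclm, and in the deletion arrays of that repeat replicate 4 was lowest in both, at -0.28 for Gclc and -0.62 for Gclm. Mgst1 and Cndp2 had no such relation within groups (r = -0.08 over 16 arrays).

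**Figure D4:**
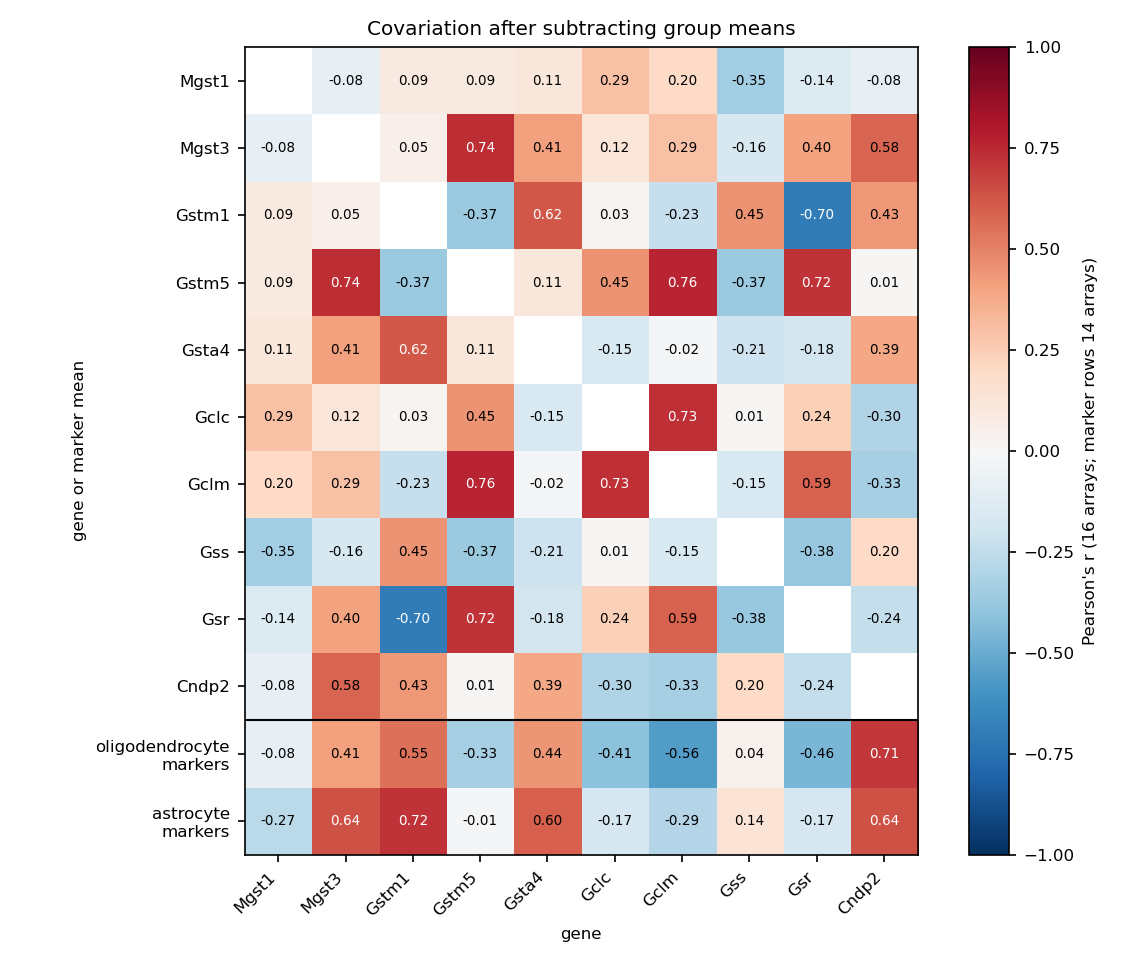
Pearson's r between genes over 16 arrays, and of genes with the oligodendrocyte and astrocyte marker means over 14 arrays, after subtracting the mean of each genotype and repeat. The darkest red cells are Gstm5 with Gclm (0.76), Mgst3 with Gstm5 (0.74) and Gclc with Gclm (0.73), and the darkest blue is Gstm1 with Gsr (-0.70), of which Gstm5 with Gclm alone passed the adjusted test.

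No relation of an enzyme with the glial marker means passed adjustment, and r took both signs. The most negative r were with the oligodendrocyte marker mean over 14 arrays, at -0.56 for Gclm, -0.46 for Gsr and -0.41 for Gclc. The most positive were those of Gstm1 and Cndp2. Gstm1 had r = 0.72 with the astrocyte marker mean over 14 arrays (permutation p = 0.012, adjusted p = 0.10, and rho = 0.60, permutation p = 0.048, adjusted p = 0.26), and 0.51 without the 2 farthest arrays. Cndp2 had r = 0.71 with the oligodendrocyte marker mean (permutation p = 0.014, adjusted p = 0.10, and rho = 0.67, permutation p = 0.028, adjusted p = 0.23) and 0.64 without the 2 farthest arrays. With the astrocyte marker mean Cndp2 had r = 0.64 (permutation p = 0.011, adjusted p = 0.10, and rho = 0.62, permutation p = 0.0089, adjusted p = 0.11), and 0.44 without the 2 farthest arrays. The corresponding r of Mgst1 was -0.08 for oligodendrocyte and -0.27 for astrocyte markers. Cndp2 on the 2 control arrays high in oligodendrocyte markers was -0.33 and -0.25, within the range of the other control arrays, -0.41 to -0.19. This mean joins the highest control values of 1448263_a_at, -0.03 and 0.10, with the lowest of 1460177_at, -0.62 and -0.59. The part of glial RNA in the values of Cndp2, Gstm1, Gsta4 and Gsr was not tested.

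**Figure D5:**
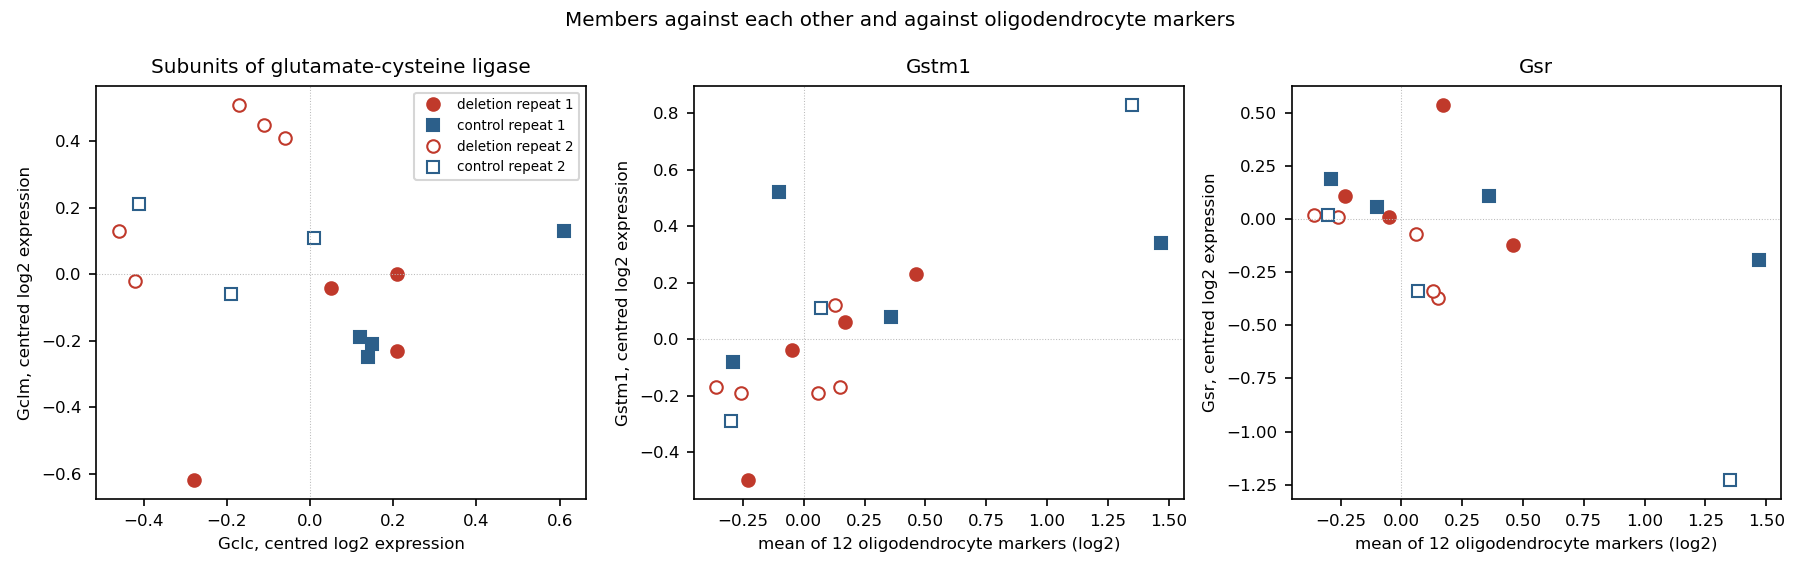
Gclm against Gclc on each array (left), and Gstm1 (centre) and Gsr (right) against the mean of 12 oligodendrocyte markers, all in centred log2 units, with deletion arrays as circles and control arrays as squares, filled for repeat 1 and open for repeat 2. In the left panel most arrays of repeat 2 lie up and to the left of those of repeat 1, and in the other panels the 2 control arrays at 1.47 and 1.35 lie far to the right, with Gsr at -1.23 on the array at 1.35.

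The genes whose within-group pattern was most like that of Mgst1 over the 16 arrays were Dnal1 (r = 0.73), Dusp3 (0.72), Recql5 (0.71), Ccdc66 (0.70) and 2310047D07Rik (0.69). For Cndp2 they were Jph4 (r = 0.84), Khdc4 (0.84), Rnpepl1 (0.84), Dtnb (0.83) and Snx17 (0.83). These are the highest of all genes by the likeness measure and are given as a description. None of the 10 passed in the deletion comparison (adjusted p from 0.37 to 1.00, limma).

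The wider pathway was described through 6 lists of glutathione and related genes, of which 78 of 89 genes were measured. Apart from Mgst1 and Cndp2, chosen from this comparison, 0 of them passed in the deletion comparison with limma, where 0.0617% of all genes did. Of the 78 differences 37 were above 0 and 41 below. Of 10 synthesis genes, 5 were higher and 5 lower, with a median of -0.00. Of 18 cytosolic transferases, 5 were higher and 13 lower in the mean, with a median of -0.03, and of 13 recycling enzymes and peroxidases 11 were higher and 2 lower, with a median of 0.06 that was 0.00 without the 2 control arrays. The 9 measured genes of breakdown had a median of 0.02, the 4 MAPEG genes (the membrane family of Mgst1) -0.02, and the 24 genes of the NRF2 pathway and thioredoxin -0.00, against -0.003 over all genes.

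At an unadjusted p under 0.05 there were 4 higher and 2 lower of the 78, Mgst1 and Cndp2 among the 4, while 4.97% of all genes were so with higher and 3.71% with lower values. The other 4 failed after adjustment. Slc1a1, a neuronal transporter that takes up glutamate and cysteine, had a difference of 0.18 ± 0.06 (adjusted p = 0.38, limma), with 0.24 within repeat 1 and 0.12 within repeat 2. Gstt1, a theta-class transferase, had -0.40 ± 0.11 (adjusted p = 0.29, limma), with -0.17 within repeat 1 and -0.65 within repeat 2. Ggt7, a member of the gamma-glutamyltransferase family that was named after its value was seen, had 0.20 ± 0.09 (adjusted p = 0.53, limma), and 0.14 ± 0.09 without the 2 control arrays. Pgd, which makes NADPH in the pentose phosphate pathway, had -0.28 ± 0.11 (adjusted p = 0.50, limma), and -0.15 without the 2 control arrays.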

How the data were processed

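The authors deposited log2 expression values and centred them: each of 37174 probe sets has a median of 0 across the 16 arrays (tolerance 1e-06). GCOS 1.4 and GCRMA are listed in the submitters' processing notes, and the software used for centring is not given in the sources used here. A deposited p-value per probe set, per the file headers from a 2-factor genotype model, was matched to within 2e-05 by a refit with an interaction and ordinary variance. The 16 value columns of that table carry names that match no sample label and were not used. Array medians ran from -0.034 to 0.046. Without absolute levels no dim probe set could be filtered, and precision is limited by how many arrays there are.

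The 62 control probe sets were left out. Of 37112 probe sets, 29680 had 1 gene, 819 several and 6613 none in the platform annotation, and 29539 symbols were updated by gene ID. Probe sets of a gene were averaged (16206 genes). Genotype and experimental repeat were fitted with limma 3.58.1 in R 4.3.3 over all genes and over all probe sets, with 13 residual and 14.3 moderated degrees of freedom for genes, and p-values were Benjamini-Hochberg adjusted over all of them (threshold 0.05). The interaction was fitted separately, and the fits were tested on simulated data.

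The members and lists were chosen with earlier results of these data known. The text names all 10 members, the 5 genes most like Mgst1 and Cndp2, and of each list the genes that passed or, failing that, the most different non-member in each direction at an unadjusted p under 0.05. Replicate numbers are shared across genotypes, and their arrays deviated together (r over 0.1) in 3 of 7 pairs (r from -0.34 to 0.45). Pairs of deletion and control arrays of a repeat with different numbers covered much the same range (r from -0.34 to 0.43). The labels do not say that the numbers pair mice, so they were not treated as pairs. Alternatives were leaving out each array or both control arrays high in oligodendrocyte markers, a replicate block, median centring and quantile normalization of arrays, no repeat term, robust moderation, a minimum residual SD of 0.1, a marker covariate, the ordinary variance and the most variable probe set.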

Additional observations from a re-analysis of the deposited data

Results flagged for a closer look

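Of 69 groups of values of these genes and probe sets, 11 held a single array far from its group, where chance flags about 1 in 20. Gene means and their own probe sets were counted as separate groups, so the 11 are not independent and cannot be set against that rate. The count of 69 appears to leave out the control arrays of repeat 2, of which there are only 3. The Gsr value of -1.23 on replicate 1 there was then not judged, so nothing is read from its absence among the 11. Mgst1 was 0.55 on deletion repeat 1 replicate 1, against 0.24 to 0.28 on the other deletion arrays of that repeat. Deletion repeat 2 replicate 5 was high in Gstm1, at 0.12 against -0.19 to -0.17 on the others (0.05 for 1416416_x_at and 0.28 for 1425627_x_at). Deletion repeat 2 replicate 2 was low in Gsta4, at -0.81 against -0.12 to 0.04, and high in Gss, at 0.52 against -0.02 to 0.11 (0.92 for 1441931_x_at). Control repeat 1 replicate 2 was high in Gclc, at 0.61 against 0.12 to 0.15, in Gclm, at 0.13 against -0.25 to -0.19, and in the Gss probe set 1448273_at, at 0.36. On control repeat 1 replicate 3 the Gsr probe set 1421816_at was -0.41, against 0.04 to 0.11.

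For Gss, and for its probe set 1441931_x_at, every deletion array of repeat 1 was below, and every deletion array of repeat 2 above, the mean of the control arrays in the same repeat. The interaction was 0.33 ± 0.22 for Gss (adjusted p = 0.93, limma) and 0.56 for 1441931_x_at (adjusted p = 0.89), so the repeats were not shown to differ.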

How the results depend on the processing

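Deletion minus control kept its direction for Mgst1 and Cndp2 in every refit, from 0.42 to 0.49 for Mgst1 and 0.36 to 0.44 for Cndp2 when 1 array was left out. As both were chosen from this comparison on these arrays, nothing is read from the kept direction. The number of genes past the adjusted threshold, 2 over all arrays, was 0 to 1 in each of the 16 refits with 1 array left out (0 to 1 of the 17 probe sets, against 1). Mgst1 passed without control repeat 1 replicate 2 or 4 or deletion repeat 2 replicate 2, and Cndp2 without replicate 1 or replicate 4 of the repeat 1 deletion arrays or replicate 1 of those of repeat 2. The count was 0 for genes and 0 for probe sets without both arrays high in oligodendrocyte markers, with the marker covariate, with the ordinary variance and with the replicate block within repeat, and 0 for genes under quantile normalization. It was 1 for genes and 0 for probe sets with arrays centred on their median and with no repeat term. The labels do not say whether replicate numbers pair mice, so it is not known whether the block is the apt fit. Under the block the differences were 0.44 ± 0.08 for Mgst1 and 0.39 ± 0.06 for Cndp2. The count lower in repeat 2 was 1 without the 2 control arrays, against 2. Among genes that did not pass, the sign changed without both arrays for Gclm (-0.0037, and -0.01 with the covariate) and Gsr 1421816_at (-0.01), and in the interaction for Gsr (-0.01), Gstm1 (0.21), Gstm5 (-0.13) and Mgst1 (0.05). With 1 array left out it changed for Gss (-0.05 to 0.08), its probe sets 1448273_at (-0.04 to 0.03) and 1441931_x_at (-0.07 to 0.13), Gstm5 (-0.17 to 0.03), Mgst3 (-0.19 to 0.0032) and Gclc 1455959_s_at (-0.08 to 0.0023), and the median over genes ran from -0.07 to 0.04. The cause was not tested.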
